A study of Homo sapiens with 8 samples.

Results

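H3K27ac ChIP-seq peaks were examined across the SOX9 locus and the gene desert around it. All peaks with a summit within 1 Mb either side of the SOX9 start on chromosome 17 were taken, a window of 2 Mb. Overlapping or touching peaks of the 6 libraries were merged, which gave 89 intervals in the window of 143733 in the genome. SOX9 (ENSG00000125398.8) lies on the plus strand at chr17:72121020-72126416 of hg38 (GENCODE release 44), and an interval is named here by the distance in kb from the SOX9 start to its summit, negative on the upstream side.

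The cells were HCEC-1CT, an immortalised line of human colonic epithelial cells that carries CDK4 and hTERT, in a parental clone with doxycycline-inducible Cas9. The 3 WT libraries were compared with 3 libraries of cells with a knockout of CREBBP, which the labels call CBP KO. The study's methods call the knockout cells monoclonal in the ChIP-seq section and elsewhere describe pools of several clones with matched parental subclones, so clone and genotype cannot be told apart. The input libraries, 1 per genotype, were not analysed here.

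SOX9 is a transcription factor of the high-mobility-group family. In the intestine it is known from the base of the crypt, where stem and progenitor cells lie and Wnt signalling is active, and in other tissues it directs cartilage, testis and neural crest development. Its gene stands almost alone in a long stretch with few protein-coding genes, and enhancers far on either side are known to drive it in different tissues. CREBBP is an acetyltransferase that, with its paralogue EP300, places acetyl groups on histone H3 at lysine 27, the mark measured here at active promoters and enhancers.

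Each library came as a list of peaks with a fold over the local background, a linear ratio. The WT lists held 86163 to 93567 peaks and the CREBBP-KO lists 99008 to 111697, so the CREBBP-KO lists were longer (1.16-fold, two-sided exact permutation p = 0.1, the smallest that 3 libraries against 3 can give). Because folds of different lists need not share a scale, the height of an interval is given mainly as a percentile, the rank of its fold among the library's own peaks from 0 (lowest) to 100 (highest). The lists hold no reads, so the depth behind each of them is not known, and the absence of a peak means only that none was called. Promoter peaks, counted within 1 kb of a transcript start, ran against the colonic epithelial label in part. Of 5 epithelial markers, EPCAM and KRT8 had a promoter peak in all 6 libraries, KRT18 in 5, and CDH1 and KRT19 in none. EPCAM percentiles were 0.2, 7.3 and 8.4 in WT and 46.1, 35.6 and 19.7 in CREBBP-KO. The intestinal markers CDX1, CDX2, VIL1 and HNF4A and the blood markers PTPRC and CD3E had none. All 4 mesenchymal markers (VIM, ZEB1, TWIST1 and COL1A1) had one in all 6 libraries, at percentiles from 84.4 to 99.9. In percentiles of the full lists, all CREBBP-KO libraries were above all WT libraries at both epithelial promoters with a peak in every library. The same held at 3 of the 4 mesenchymal ones. Over the genome, 28.9% of the intervals with a peak in every library had this order and 12.1% the opposite. The longer CREBBP-KO lists raise such percentiles, and the marker values do not take list length out. Of the 2 endothelial markers PECAM1 had a peak in the 3 CREBBP-KO libraries alone, at percentiles from 12.5 to 39.6, and CDH5 in none. What part cell state had in the results was not tested.

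The sequences shown are those of a pair of intervals with a large gain in rank in CREBBP-KO, the interval of the largest loss whose libraries did not overlap, and the highest interval of the window. They are given as 300 bases around the summit, 5′ to 3′ on the plus strand of hg38, and capitals mark the only matches found to the 6 motifs searched.
+218.4 kb interval, chr17:72339286-72339585: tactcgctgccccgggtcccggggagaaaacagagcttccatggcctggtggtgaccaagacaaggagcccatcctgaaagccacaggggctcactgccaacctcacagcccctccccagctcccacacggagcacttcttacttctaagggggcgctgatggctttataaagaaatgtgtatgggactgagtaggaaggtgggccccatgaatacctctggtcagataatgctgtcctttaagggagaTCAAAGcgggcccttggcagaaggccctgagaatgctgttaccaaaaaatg
+471.4 kb interval, chr17:72592241-72592540: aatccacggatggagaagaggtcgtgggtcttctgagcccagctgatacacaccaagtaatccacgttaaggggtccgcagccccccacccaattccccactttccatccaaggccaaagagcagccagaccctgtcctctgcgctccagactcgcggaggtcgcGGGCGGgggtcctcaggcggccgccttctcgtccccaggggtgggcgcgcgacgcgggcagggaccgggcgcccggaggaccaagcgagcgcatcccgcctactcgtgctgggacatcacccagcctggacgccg
+482.4 kb interval, chr17:72603259-72603558: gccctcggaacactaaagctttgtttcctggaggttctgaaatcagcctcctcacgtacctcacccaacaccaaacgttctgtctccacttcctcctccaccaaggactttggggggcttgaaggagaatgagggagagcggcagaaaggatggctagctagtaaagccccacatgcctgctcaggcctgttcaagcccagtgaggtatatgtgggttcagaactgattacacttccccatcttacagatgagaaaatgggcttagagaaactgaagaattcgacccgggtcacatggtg
-979.5 kb interval, chr17:71141328-71141627: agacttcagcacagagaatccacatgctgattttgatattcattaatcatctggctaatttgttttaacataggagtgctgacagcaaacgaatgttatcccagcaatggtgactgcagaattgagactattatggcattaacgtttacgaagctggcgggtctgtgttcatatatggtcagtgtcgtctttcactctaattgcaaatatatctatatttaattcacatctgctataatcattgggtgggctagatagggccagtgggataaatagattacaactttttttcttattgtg
The motifs were those of AP-1 (TGANTCA), TEAD (GGAATG), TCF/LEF (CTTTGA), the cyclic AMP response element (TGACGTCA), SOX factors (ACAATG) and the GC box (GGGCGG), each on both strands, and none of these can lie inside another. TCF/LEF proteins are the DNA-binding partners of beta-catenin in Wnt signalling. Their letters stood once in the +218.4 kb sequence, on the minus strand, so that they read TCAAAG above. The GC box, the motif of SP1 and related factors, stood once in the +471.4 kb sequence. Among the 34847 summit windows of the same length that passed the fold filter described below, 16.3% held the TCF/LEF letters, 22.5% the GC box, 8.81% AP-1, 14.6% TEAD, 11.5% SOX and 0.215% the cyclic AMP response element. A match is a description of letters and was not tested as a binding site.

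SOX9 itself carried no H3K27ac peak. No peak of the 6 libraries overlapped the 1 kb either side of its start or its gene body, and none came within 5 kb or 50 kb of the start. Among 19689 protein-coding genes, 6350 (32.3%) likewise had no promoter peak in any library, while 12147 (61.7%) had one in all 6. The nearest peak edge lay 90.045, 90.027 and 90.037 kb from the SOX9 start in the WT libraries, and 71.985, 71.082 and 90.01 kb away in the CREBBP-KO libraries. The distances did not overlap between genotypes (mean difference -12.3 kb, exact permutation p = 0.1), but the third CREBBP-KO library had the same nearest peak as WT. Between 9.28% and 10.9% of 20033 protein-coding start sites, depending on the library, lay farther still from their nearest peak.

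The stretch without peaks around SOX9 was bounded upstream by the same peak in every library, and its downstream edge moved. In WT the empty stretch measured 303.5 kb in all 3 libraries, and the first peak downstream stood 213.4, 213.5 and 213.5 kb from the start. In the CREBBP-KO libraries it measured 162.0, 161.1 and 265.4 kb, and the first downstream peaks stood at 72.0, 71.1 and 175.4 kb. Every CREBBP-KO library thus had a peak closer to SOX9 on the downstream side than any WT library (exact permutation p = 0.1). The peaks at +71.3 and +72.2 kb, in introns of SOX9-AS1, were low and each was present in 1 library, at percentiles of 9.0 and 6.0. When the lists were limited to a -log10 q of 5 or more, the difference in the nearest peak was -0.008 kb, and it was the same with lists of the same length (both exact permutation p = 0.6). When they were limited to a fold of 5 or more it was -103.0 kb, with means of 193.1 kb in WT and 90.03 kb in CREBBP-KO. This came from the upstream side, where the -90.6 kb interval, present in all 6 libraries, reached that fold in CREBBP-KO alone.

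Of the transcripts annotated around SOX9, few had a peak at a start. ROCR, a long noncoding RNA named for its part in chondrogenesis, and LINC01152 both have an annotated start within 1 kb of the -90.6 kb interval (chr17:72029963-72031010). Its percentiles were 43.9, 53.8 and 45.6 in WT and 66.7, 69.6 and 66.8 in CREBBP-KO, and its folds 3.93, 4.61 and 4.16 in WT and 5.36, 6.07 and 5.82 in CREBBP-KO. All CREBBP-KO libraries were above all WT libraries. This interval, the nearest to SOX9 that was present in every library, did not pass the test described below (shift 0.64 ± 0.29 SE, limma, Benjamini-Hochberg adjusted p = 0.0821). SOX9-AS1, the antisense transcript that overlaps SOX9, LINC02097 and LINC02003 had no promoter peak in any library. LINC00511 and SLC39A11, downstream of SOX9, had one in all 6.

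**Figure D1:**
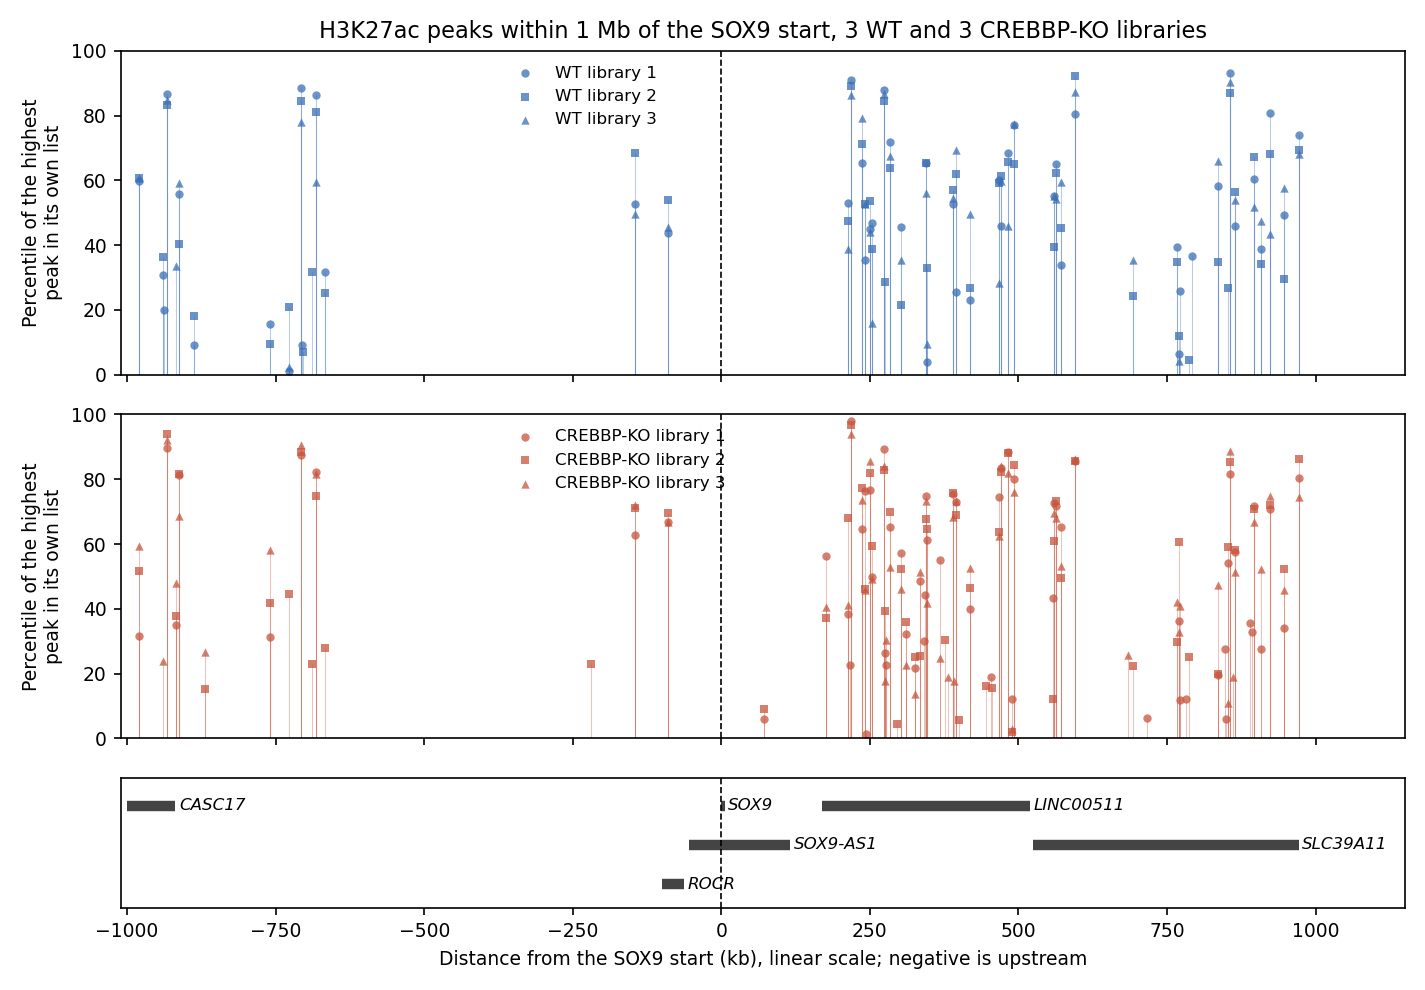
The upper and middle panels plot each peak interval of the 3 WT and 3 CREBBP-KO libraries at its distance from the SOX9 start (x axis, kb), with the percentile of its fold in the library's own list on the y axis, and the lower panel shows annotated genes. No point lies within 50 kb of SOX9 (dashed line), and the points nearest to it downstream are 2 low CREBBP-KO ones at +71.3 and +72.2 kb.

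The 89 intervals lay mostly downstream, and 20 were upstream of SOX9. Upstream, 17 stood between 500 kb and 1 Mb from the start, 2 between 100 and 500 kb, and 1 within 100 kb. The longest upstream run without a peak in any library spanned 445.9 kb (chr17:71454103-71900000). Downstream, 2 intervals stood within 100 kb, 39 between 100 and 500 kb, and 28 between 500 kb and 1 Mb. Those 39 were the ones with a summit inside LINC00511, a long noncoding RNA of 350.4 kb with 84 annotated starts, and those 28 the ones with a summit inside SLC39A11, which encodes a zinc transporter. Of the 89, 37 (41.6%) had a peak in all 6 libraries and 30 (33.7%) in 1 alone, beside 36.3% and 32.8% of all intervals of the genome.

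CREBBP-KO libraries had more peaks in the window than WT libraries. The counts were 52, 54 and 45 in WT and 74, 66 and 62 in CREBBP-KO (50.3 ± 4.73 and 67.3 ± 6.11, SD, n = 3). The groups did not overlap, and the exact permutation p was 0.1. Per 10000 peaks of the library's own list, the window held 5.56, 5.81 and 5.22 peaks in WT and 6.63, 6.28 and 6.26 in CREBBP-KO, again without overlap (5.53 ± 0.296 and 6.39 ± 0.203, exact permutation p = 0.1). The bases covered by these peaks came to 73.6, 80.3 and 72.9 kb in WT and 93.0, 91.5 and 93.5 kb in CREBBP-KO (75.6 ± 4.10 and 92.7 ± 1.06 kb, exact permutation p = 0.1). The number of peaks per Mb in the window, 22.5 to 27 for WT and 31 to 37 for CREBBP-KO, stood beside 27.9 to 30.3 and 32.1 to 36.2 over the genome. With lists of the same length, the excess of 17 peaks fell to 8.67 (exact permutation p = 0.1). The difference in share, 1.01 per 10000, is then the same result on another scale. Limited to a -log10 q of 5 or more, the excess was 4.67 peaks (exact permutation p = 0.2) and the share differed by 0.314 per 10000 (exact permutation p = 0.4), so the separation of the genotypes in both was lost.

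The excess was on the downstream side. Upstream of SOX9, the libraries held 15, 15 and 11 peaks in WT and 12, 16 and 12 in CREBBP-KO, and the groups overlapped (exact permutation p = 1). Downstream, the counts were 37, 39 and 34 in WT and 62, 50 and 50 in CREBBP-KO, without overlap (exact permutation p = 0.1). Within LINC00511, a stretch singled out after its values were seen, WT libraries held 20, 21 and 19 peaks and CREBBP-KO libraries 36, 32 and 30 (20.0 ± 1.00 and 32.7 ± 3.06). These peaks covered 33.3, 36.3 and 34.6 kb in WT and 52.8, 49.7 and 51.6 kb in CREBBP-KO, and neither measure overlapped (both exact permutation p = 0.1). In SLC39A11 the counts did overlap, at 17, 18 and 15 in WT and 25, 17 and 20 in CREBBP-KO (exact permutation p = 0.3). The difference of 12.7 peaks in LINC00511 became 8.33 with lists cut to the same length, 4.67 among peaks of a fold of at least 5, and 3.33 among those whose -log10 q reached 5. At that last limit the separation of the genotypes in the number of peaks was lost (exact permutation p = 0.2). The covered bases there still differed by 11.8 kb (exact permutation p = 0.1). The ratio of the mean numbers of peaks was 1.63 over all peaks, 1.42 with lists of the same length, 1.56 at a fold of 5 or more and 1.19 at a -log10 q of 5 or more.

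Intervals with a peak in all 3 libraries of 1 genotype and none of the other were found for CREBBP-KO alone. There were 6 such intervals of 89 (6.74%), beside 2.66% of all intervals of the genome, and 0 that were specific to WT, beside 1.08%. Of the 6, 1 lay upstream, at -917.1 kb, and the others in LINC00511 at +176.9, +311.4, +325.8, +335.0 and +488.7 kb. Their folds were all below 5. The highest, at +176.9 kb, had folds of 4.39, 3.54 and 3.61 and percentiles of 56.3, 37.2 and 40.7 in the CREBBP-KO libraries. At -917.1 kb the percentiles were 35.1, 37.7 and 48.0, and at +335.0 kb 48.7, 25.4 and 51.3. The percentiles of the other 3 ranged from 2.1 to 36.0. In lists limited to a -log10 q of 5 or more, 1 of the window's intervals was specific to CREBBP-KO. Among the 30 intervals found in 1 library, 25 were in a CREBBP-KO library and 5 in a WT library, beside 29916 and 17164 over the genome.

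Heights were next compared over the 37 intervals present in every library. Extra low peaks in a longer list raise the percentile of its other peaks, so the order of the libraries is given with and without list length. In 17 of them (45.9%) all CREBBP-KO libraries ranked above all WT libraries, beside 28.9% over the genome, in 1 the order was the opposite, beside 12.1%, and in 19 the libraries overlapped. The median of the mean percentiles over the 37 was 55.8 in WT and 71.1 in CREBBP-KO. Over all 52187 intervals present in every library it was 69.2 in WT and 73.1 in CREBBP-KO. Ranked only among those 52187 intervals, which takes list length out, CREBBP-KO was above WT in 11 of the 37 (29.7%, beside 20.3%) and WT above CREBBP-KO in 1 (beside 19.3%). The medians were then 31.6 in WT and 45.4 in CREBBP-KO, beside 49.2 and 49.04 over the genome. With lists of the same length, 36 of the window's intervals were present in all 6, and CREBBP-KO was above WT in 11 (30.6%, beside 20.7%) and WT above in 1 (beside 19.3%). By stretch and in percentiles of the full lists, CREBBP-KO ranked above WT in 10 of 18 such intervals in LINC00511, in 4 of 12 in SLC39A11 and in 3 of 7 upstream. In LINC00511, 17 of the 39 intervals overlapped the 1 kb around an annotated start of that gene, and 18.0% of its length lies that near to a start. Wide intervals meet a start more easily. Of the 18 present in every library, CREBBP-KO ranked above WT in 7 of 12 at a start and in 3 of 6 away from one. These counts by stretch and start do not take list length out.

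Rank shifts were tested with limma on normal scores of the fold rank, CREBBP-KO minus WT, over the 34864 intervals of the genome with a peak in all 6 libraries and a fold of at least 5 in all 3 libraries of a genotype. A shift of 1 is 1 SD of the normal scores. Ranks are relative, so a higher rank in CREBBP-KO does not show more H3K27ac in absolute amount. The study found global H3K27ac significantly lower in CREBBP-KO cells by immunofluorescence, with an effect minimal beside that of a deacetylase inhibitor. By mass spectrometry it found a moderate reduction of borderline significance, and by ChIP-seq most peaks were unaffected. The window had 24 such intervals, of which 12 had passed the fold filter in CREBBP-KO alone, 2 in WT alone and 10 in both. At an adjusted p under 0.05, 6 were higher in CREBBP-KO (25.0%, beside 18.6% of all tested) and 2 lower (8.33%, beside 18.7%). In either direction 8 of the 24 passed at an adjusted p under 0.05, beside 37.3% of all tested. At an adjusted p under 0.0001, 0 of the 24 passed, beside 2.79% of all tested. At an unadjusted p under 0.05, 10 passed, and the share over all tested intervals at that limit is not given here. The median shift over the 24 was 0.32, and over all tested intervals 0.02. Of the intervals past the fold filter, 50% in the window had passed through CREBBP-KO alone, beside 14.8% over the genome. The filter thus favours a positive median in the window. Because the filter lets in intervals that are high in 1 genotype, the test was also run over all intervals with a peak in all 6 libraries. Of the window's 37, 6 were then higher (16.2%, beside 12.5%) and 0 lower (beside 12.1%), with limma and Benjamini-Hochberg adjustment. The median shift over the 37 was 0.21. At an unadjusted p under 0.05, 3 were lower, again without a share over the genome beside it. Of the 6 higher ones 5 were the same in both fits. The +389.7 kb interval dropped out and the +346.8 kb interval, in LINC00511, came in.

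Of the 6 intervals with a gain, 5 lay in LINC00511, which held 12 of the 24 tested, and 1 upstream, where 6 were tested. Of the 6 tested in SLC39A11 none gained. All the gains but that at +218.4 kb had passed the fold filter through CREBBP-KO alone. Without the filter the shifts were 1.16 at +249.8 kb, 0.97 at +471.4 kb and 0.97 at +482.4 kb (limma, Benjamini-Hochberg adjusted p = 0.000506, 0.00132 and 0.000951). They were 0.59 at +218.4 kb, 0.82 at -912.8 kb and 0.54 at +389.7 kb (limma, Benjamini-Hochberg adjusted p = 0.00488, 0.013 and 0.0663). The values below are from the filtered fit. The largest shift was at +249.8 kb (chr17:72369829-72372624), in an intron. Its folds were 4.00, 4.59 and 4.11 in WT and 7.07, 9.25 and 11.3 in CREBBP-KO, and its percentiles 45.1, 53.6 and 44.1 against 76.6, 82.1 and 85.7. The mean fold was 2.17 times that of WT, with a shift of 1.63 ± 0.29 (SE, limma, Benjamini-Hochberg adjusted p = 0.000199). This interval stood near the middle of the WT lists and well above it in each CREBBP-KO list.

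Next came a pair of intervals toward the 5′ end of LINC00511, which lies on the minus strand with its 3′ end facing SOX9. At +471.4 kb (chr17:72590474-72592836) the summit lay in an exon, 23 bp from an annotated LINC00511 start, and its sequence held 67.3% G and C, beside a median of 48.3% over all filtered summits. The folds were 4.06, 5.33 and 5.33 in WT and 9.07, 9.29 and 10.6 in CREBBP-KO. This was a ratio of 1.96 and a shift of 1.41 ± 0.27 (limma, Benjamini-Hochberg adjusted p = 0.000454). The highest peaks of the 6 libraries in this interval had summits spread over 1501 bp, so they were not at the same position. At +482.4 kb (chr17:72600627-72604436), also in an exon and 100 bp from a start, the folds were 6.27, 5.91 and 4.18 in WT and 11.3, 12.03 and 9.60 in CREBBP-KO. The ratio was 2.01 and the shift 1.39 ± 0.27 (limma, Benjamini-Hochberg adjusted p = 0.000535), with summits within 177 bp of each other. In both intervals every CREBBP-KO library was above every WT library.

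The highest interval of the window by mean percentile was at +218.4 kb (chr17:72337563-72340915), in a LINC00511 intron and 111 bp from another of its starts. WT folds were 13.1, 11.8 and 11.2 and CREBBP-KO folds 20.9, 20.0 and 17.1, with percentiles of 90.9, 89.1 and 86.4 against 97.9, 96.8 and 94.1. The mean fold ratio was 1.60 and the shift 0.68 ± 0.17 (limma, Benjamini-Hochberg adjusted p = 0.00388). The summits of the 6 libraries lay within 20 bp. This interval was already among the high peaks of WT, and the groups did not overlap. With peaks ordered by -log10 p, this shift no longer passed (limma, Benjamini-Hochberg adjusted p = 0.28).

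A smaller gain in LINC00511 was found at +389.7 kb (chr17:72509777-72512184), in an intron. Its folds were 4.51, 4.89 and 4.80 in WT and 6.83, 7.37 and 6.08 in CREBBP-KO (ratio 1.43, shift 0.80 ± 0.28, limma, Benjamini-Hochberg adjusted p = 0.0297). The libraries did not overlap, but the call was lost without the first WT library and without either of the first 2 CREBBP-KO libraries. Upstream, the single gain was at -912.8 kb (chr17:71207704-71209545), outside annotated genes. The folds there were 4.74, 3.79 and 5.22 in WT and 8.38, 9.08 and 6.09 in CREBBP-KO (ratio 1.71, shift 1.17 ± 0.31, limma, Benjamini-Hochberg adjusted p = 0.00561). All CREBBP-KO libraries were above all WT libraries, and the call was lost with peaks ordered by -log10 p (limma, Benjamini-Hochberg adjusted p = 0.0768).

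Both intervals with a loss were at the far ends of the window. At -979.5 kb (chr17:71141162-71142626), in an intron of the long noncoding RNA CASC17, the folds were 5.13, 5.26 and 5.40 in WT and 3.33, 4.21 and 4.86 in CREBBP-KO. Its percentiles were 59.7, 60.6 and 60.6 against 31.5, 51.7 and 59.4, so the third CREBBP-KO library was close to WT. The fold ratio was 0.786 and the shift -0.78 ± 0.30 (limma, Benjamini-Hochberg adjusted p = 0.0475). This interval had passed the fold filter through WT alone. Without the filter its shift of -0.62 did not pass (limma, Benjamini-Hochberg adjusted p = 0.112). At +856.5 kb (chr17:72976050-72979022), in an intron of SLC39A11, the folds were 14.5, 10.9 and 12.9 in WT and 8.49, 10.6 and 12.8 in CREBBP-KO, and the libraries overlapped. The shift was -0.51 ± 0.20 (limma, Benjamini-Hochberg adjusted p = 0.0466), and without the fold filter it was -0.41 and did not pass (limma, Benjamini-Hochberg adjusted p = 0.0557). The loss at -979.5 kb ceased to pass without any 1 of the WT libraries and without the first or the second CREBBP-KO library. That at +856.5 kb ceased to pass without the first or the third WT library and without the first or the second CREBBP-KO library.

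**Figure D2:**
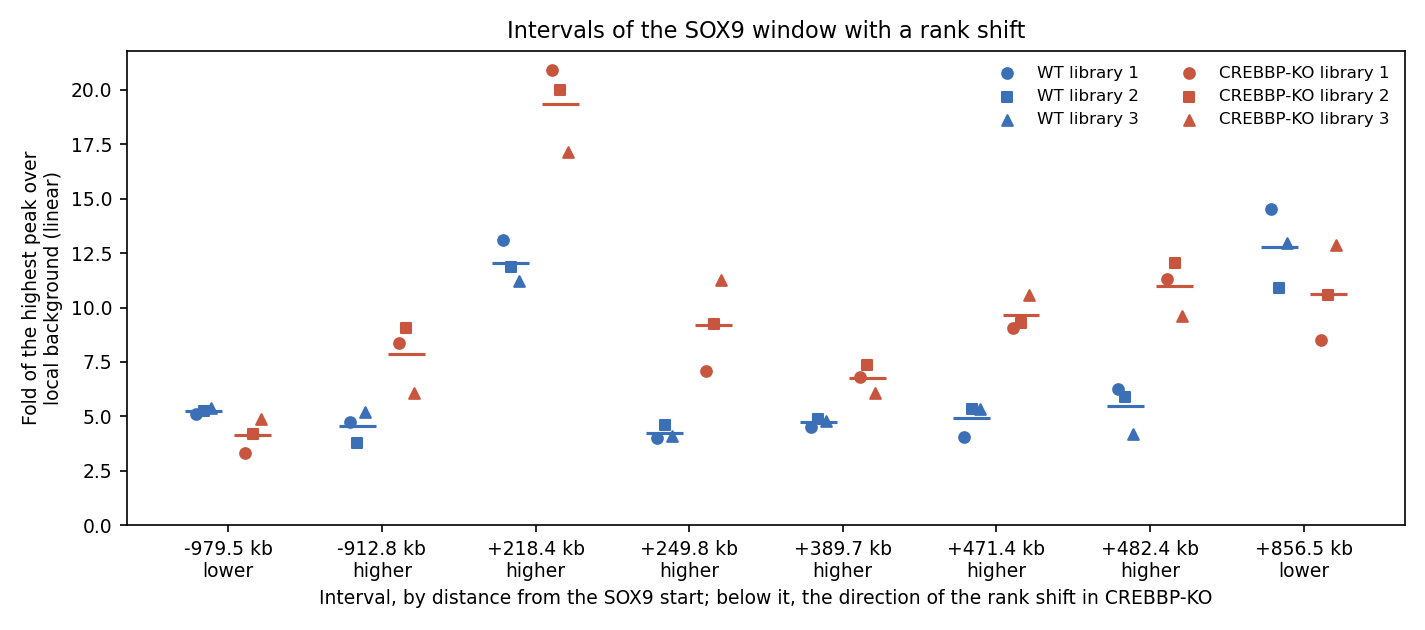
Points give the fold of the highest peak over local background (y axis, linear) in each of 3 WT and 3 CREBBP-KO libraries, and lines the means, for the 8 intervals with a rank shift, ordered by distance from the SOX9 start (x axis). The test had picked these 8 intervals on the ranks of the same folds. WT and CREBBP-KO points are apart at 7 of the 8 and overlap at +856.5 kb.

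The other high intervals of the window did not pass the test. The second highest was at -932.4 kb (chr17:71187604-71190399), in a CASC17 intron, with percentiles of 86.6, 83.1 and 84.9 in WT and 89.7, 93.9 and 92.1 in CREBBP-KO. Its libraries did not overlap, but the shift of 0.42 did not pass (limma, Benjamini-Hochberg adjusted p = 0.0706). At +595.6 kb, in an intron of SLC39A11, percentiles were 80.4, 92.2 and 87.2 in WT and 85.7, 85.7 and 86.4 in CREBBP-KO. At -707.7 kb, outside genes, they were 88.4, 84.4 and 77.9 in WT and 87.4, 88.5 and 90.6 in CREBBP-KO. The libraries of both intervals overlapped, and their shifts were -0.21 and 0.22 (limma, Benjamini-Hochberg adjusted p = 0.433 and 0.398). At the SLC39A11 promoter, +971.5 kb, percentiles were 73.9, 69.5 and 68.3 in WT and 80.5, 86.4 and 74.6 in CREBBP-KO, and the shift of 0.42 did not pass (limma, Benjamini-Hochberg adjusted p = 0.189).

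Height on the 2 sides of SOX9 was compared per library, as the median percentile of the 7 upstream minus that of the 30 downstream intervals present in every library. The differences were 3.04, 8.00 and 4.67 in WT and 9.20, 5.57 and 3.803 in CREBBP-KO. The upstream side was the higher one in all 6 libraries, and the genotypes overlapped (difference 0.954, exact permutation p = 0.6). Within 500 kb of SOX9 the order of the sides was the opposite, with mean differences of -3.30 in WT and -3.39 in CREBBP-KO. There the upstream side held only the intervals at -145.4 and -90.6 kb, beside 18 downstream.

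The promoters of 16 genes of the SOX family were read in the same way. A promoter peak was present in all 6 libraries at SOX4, SOX5, SOX12, SOX13, SOX15 and SOX30, and in none at the other 10 genes. Those without a peak were SOX9 and its closest relatives SOX8 and SOX10, SOX2 and SOX21, SOX7, SOX17 and SOX18, SOX6 and SOX11. In the fit over the 34864 filtered intervals, 3 of the 6 were higher in CREBBP-KO and 0 lower, beside 18.6% and 18.7% of all tested (limma), and all 6 shifts were above 0. SOX13 and SOX30 had passed the fold filter through CREBBP-KO alone, so the fit without that filter was read too. There 2 of the 6, SOX30 and SOX13, were higher and 0 lower, beside 12.5% and 12.1% (limma, Benjamini-Hochberg adjusted p = 0.000281 and 0.033), and SOX5 did not pass (limma, Benjamini-Hochberg adjusted p = 0.0554). SOX30, known from the testis, had percentiles of 46.3, 53.8 and 57.0 in WT and 87.6, 81.0 and 83.9 in CREBBP-KO (shift 1.66 ± 0.27, limma, Benjamini-Hochberg adjusted p = 9.77e-05). SOX13 had 49.4, 38.3 and 66.0 in WT and 74.5, 74.8 and 76.5 in CREBBP-KO (shift 1.00 ± 0.32, limma, Benjamini-Hochberg adjusted p = 0.0186). SOX5, a partner of SOX9 in cartilage, had 90.3, 90.8 and 93.2 in WT and 95.8, 95.6 and 97.0 in CREBBP-KO (shift 0.42 ± 0.16, limma, Benjamini-Hochberg adjusted p = 0.0476). In these 3 genes the libraries did not overlap between genotypes. At SOX4, a factor of progenitor cells, percentiles of 75.6, 82.9 and 80.2 in WT and 84.2, 89.4 and 91.4 in CREBBP-KO did not pass the test (limma, Benjamini-Hochberg adjusted p = 0.0975). SOX12 and SOX15 overlapped between genotypes.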

How the data were processed

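The H3K27ac peak lists of 3 libraries per genotype were used. The authors used the nf-core ChIP-seq pipeline with BWA and hg38, and MACS2 called narrow peaks per library. In the deposited lists the fold is a linear ratio over local background, and significance is given by the authors as -log10 p and -log10 q, the smallest -log10 q being 1.3. The deposited score was not used. The methods also describe reads downsampled to a comparable depth and run through the same pipeline. Which of the runs gave the deposited lists, and the control input, are not given in the sources used here. Peak numbering within each list was consecutive.

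Overlapping or touching peaks of the 6 lists were joined. Transcripts and their starts came from GENCODE release 44. An interval's value in a library was the highest fold of its peaks. Library values were tested by exact permutation (two-sided), and rank shifts by limma (trend) with Benjamini-Hochberg adjustment over 34864 intervals. In simulated data with shifts planted in 200 intervals, the fit recovered 13.5% of shifts of 1, 73.5% of 1.5 and 99.5% of 3. Far fewer intervals shifted there than in the data, where some shifts below 1 passed. A shift that did not pass is not shown to be absent. P-values measure the spread between the libraries of a genotype. The study's methods do not state whether these came from separate cultures or clones. The labels do not say whether replicate numbers pair the libraries, and the main fit used no pairing. Same-numbered deviations correlated at 0.0108, 0.0144 and 0.0284, and differently numbered ones at -0.0248 to 0.0118. The rule for named intervals took the 5 highest, up to 6 shifts in each direction without overlap and up to 6 intervals specific to a genotype; +856.5 kb was one of the highest, and +346.8 kb and intervals named for position were chosen after their values were seen. Genes nearest to SOX9 in promoter height were to be named, but SOX9 had no peak. Some planned marker genes and the sequence of 1 interval are not reported here. The window, lists and tests were chosen with earlier results of these data known. Software was Python 3.11.15, pandas 2.3.3, scipy 1.17.1, R 4.3.3 and limma 3.58.1.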

Additional observations from a re-analysis of the deposited data

How the results depend on the processing

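The excess of peaks, of covered bases and of the share of the list in the window of CREBBP-KO kept its direction under all 10 alternatives of each, and across the fits that left out 1 library the differences ranged from 13.7 to 19.7 peaks, 15.7 to 19.4 kb and 0.705 to 1.00 peaks per 10000. Without 1 library the difference in LINC00511 was 11 to 14 peaks and 15.9 to 17.5 kb, and that in the nearest peak -18.5 to -9.04 kb. The 17 intervals ranked higher in CREBBP-KO were 11 when ranked among intervals present in every library and 11 with lists of the same length, and both were added after seeing the data, as was the fit of the SOX family without a fold filter. The LINC00511 and nearest-peak measures and their alternatives were chosen after seeing the data. The count of 8 rank shifts was 2 with a fold of at least 10 (1 higher, 1 lower), 3 when ranked by -log10 p (3 higher, 0 lower), 0 at an adjusted p under 0.0001, where 2.79% of all tested intervals passed, and 5 to 8 without 1 library (5 to 7 higher, 0 to 2 lower; 5 without the first WT library). The 2 losses were 0 with a fold of at least 3 or no fold filter, and 1 with the fold in 2 of 3 libraries, with log2 folds or without trend. Apart from no fold filter and the limit of 0.0001, the genome shares under these settings are not given here. Their counts cannot be set against the genome. At an unadjusted p under 0.05, 10 of the 24 passed, a count without a share over all tested intervals beside it. The gains at +249.8, +471.4 and +482.4 kb passed in all 13 alternatives of each. With the replicate number as a block, 8 shifts were called (6 higher, 2 lower). Intervals specific to CREBBP-KO numbered 1 with a -log10 q of at least 5 and 6 to 8 without 1 library, and those specific to WT 0 to 1, with 1 without the third WT or the second CREBBP-KO library. The genotype difference in upstream minus downstream height turned to -1.48 when ranked by -log10 p, -0.0855 within 500 kb, -1.05 with a fold of at least 5, and ranged from -0.550 to 2.33 without 1 library. The causes were not tested. The planned SOX9 promoter values, also with 5 kb, could not be given, as no peak was there, and merging within 500 bp was not run for single intervals. Peak lists without reads limit what can be said of intervals without a called peak.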
